A study of Homo sapiens with 6 samples.

Results

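Metallothioneins are small, cysteine-rich proteins that bind zinc, copper and cadmium, and the 10 genes described here are 7 of them together with genes that set zinc levels in the cell. They are MT1E, MT1F, MT1G, MT1H, MT1M, MT1X and MT2A, the metal-sensing transcription factor gene MTF1, the zinc exporter gene SLC30A1 and the zinc importer gene SLC39A10. They were represented by every probe set whose only gene symbol in the array annotation is one of these names, which gave 18 probe sets of 54613 on the array. The annotation names 19775 genes in this way. They were selected on measured values, since MT1H, MT1F and MT1X passed the threshold in an earlier comparison of M5 with SW480 on the same arrays. For that reason the values of these genes below are a description and their calls support nothing further.

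The arrays carried RNA of M5 cells and of SW480 cells, with 3 arrays each that the labels name biological replicates. SW480 is a human colorectal cancer cell line. M5 is a subpopulation that was selected in vivo out of SW480 for spread to the liver; the labels do not say whether it is a single clone, which host was used or how long it was kept in culture. Both populations carry no further label of genotype or treatment, were grown in the same serum-supplemented medium, and no added metal is named. As the labels do not describe separate cultures, p-values measure only the spread between these arrays.

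Zinc that enters the cytosol is bound by MTF1, which then occupies metal response elements, short DNA motifs repeated in the promoters of metallothionein genes. MTF1 thereby raises transcription of metallothioneins and of SLC30A1, whose product moves zinc out of the cytosol. In mouse cells MTF1 is also known to hold down Slc39a10, whose product brings zinc in. Metallothionein genes also respond to cadmium, copper, glucocorticoids and oxidative stress.

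Promoters of 4 of these genes are printed to show how often the motif recurs in them. RefSeq windows of build GRCh38.p14, running from 250 bases before the annotated start to 50 bases after it, were found for 6 of the 10 genes; MT1E, MT1F, MT1G and MT1M had no entry in the table used. Capitals mark the metal response element core, TGCACNC or TGCGCNC, on either strand. The windows are MT1H (chr16:56669564-56669863, plus strand), MT1X (chr16:56682220-56682519, plus strand), MT2A (chr16:56608334-56608633, plus strand) and SLC30A1 (chr1:211579112-211579411, minus strand), each printed along its gene's own strand.
MT1H: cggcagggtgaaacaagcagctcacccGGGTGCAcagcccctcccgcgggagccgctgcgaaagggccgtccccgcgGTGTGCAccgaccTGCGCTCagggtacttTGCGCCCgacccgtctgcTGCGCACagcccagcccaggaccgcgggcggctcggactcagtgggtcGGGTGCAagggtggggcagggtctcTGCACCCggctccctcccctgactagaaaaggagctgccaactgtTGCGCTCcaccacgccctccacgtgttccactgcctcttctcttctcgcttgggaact
MT1X: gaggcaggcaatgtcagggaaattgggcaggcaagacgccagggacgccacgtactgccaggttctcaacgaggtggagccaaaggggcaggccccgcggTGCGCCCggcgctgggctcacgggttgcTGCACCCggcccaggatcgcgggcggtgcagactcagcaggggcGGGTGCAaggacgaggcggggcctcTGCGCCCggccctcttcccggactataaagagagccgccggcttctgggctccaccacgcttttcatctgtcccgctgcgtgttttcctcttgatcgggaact
MT2A: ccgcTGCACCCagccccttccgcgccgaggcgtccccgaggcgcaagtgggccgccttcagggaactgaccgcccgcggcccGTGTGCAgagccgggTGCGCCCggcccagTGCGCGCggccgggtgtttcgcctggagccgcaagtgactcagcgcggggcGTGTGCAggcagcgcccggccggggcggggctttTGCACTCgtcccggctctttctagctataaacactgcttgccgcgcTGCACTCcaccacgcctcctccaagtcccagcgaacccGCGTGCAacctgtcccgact
SLC30A1: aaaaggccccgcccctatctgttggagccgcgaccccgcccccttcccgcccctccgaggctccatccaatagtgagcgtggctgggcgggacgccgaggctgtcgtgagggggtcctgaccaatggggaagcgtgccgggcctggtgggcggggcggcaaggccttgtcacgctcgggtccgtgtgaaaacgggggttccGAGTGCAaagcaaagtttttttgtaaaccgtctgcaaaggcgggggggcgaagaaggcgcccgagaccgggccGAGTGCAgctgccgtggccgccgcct

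The core occurred 8 times in the MT1H window, 8 times in that of MT2A and 4 times in that of MT1X. It occurred 2 times in the SLC30A1 window, both on the strand opposite to the gene. Of 35116 promoter windows of the same length in the table, 29.6% held at least 1 core and 8.6% held 2 or more. Counts of 4 or more occurred in 0.601% of them and of 8 or more in 0.0199%. The MTF1 window held none, and of the 2 annotated starts of SLC39A10 one held none and the other 1, which says only that these letters were not in those windows. A match of letters is not evidence of binding in these cells.

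**Figure D1:**
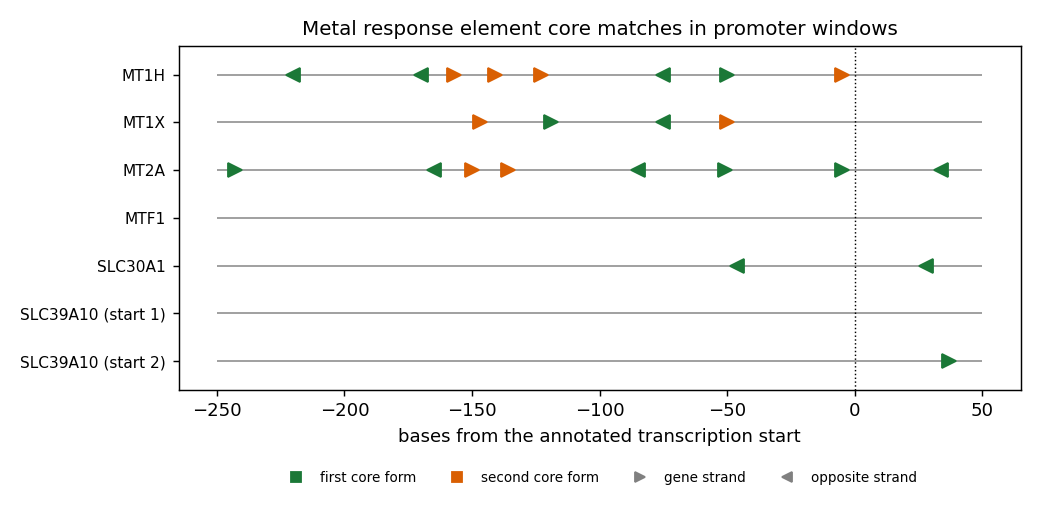
Position of each metal response element core in 7 promoter windows, in bases from the annotated transcription start (dotted line); green marks the form TGCACNC, orange the form TGCGCNC, and the arrow gives the strand relative to the gene. MT1H and MT2A carry 8 cores each and MT1X 4, against 2 in SLC30A1, 1 at one start of SLC39A10 and 0 in MTF1.

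The arrays differed in overall brightness by up to 4.13 times in the 2% trimmed mean, so signals were quantile normalised, and all signals below are normalised signals on the linear scale of that procedure. M5 replicate 1 and SW480 replicate 1 were the dimmest arrays of their groups. Over 5462 bright probe sets, M5 replicates 2 and 3 correlated more closely (r = 0.994) than any other 2 arrays (r of 0.894 to 0.958), and they were counted as 1 sample in every mean and SD (n = 2 for M5). The 18S ribosomal RNA control was high on M5 replicate 1 and SW480 replicates 1 and 2 (geometric means of 1243 to 1814 in deposited units) and low on the other arrays (88.4 to 274). Of 12 epithelial markers chosen for the labelled cell type, 9 were bright enough to test. EPCAM, which encodes an epithelial adhesion protein, had signals of 2239.5 to 2923 on M5 arrays and 2176 to 2559 on SW480 arrays. Of the 9, 6 were higher and 3 lower in M5 by sign. Only KRT19 had an unadjusted p under 0.05 in the linear model (limma), at a log2 fold change of 0.75 with overlapping groups. Over all tested genes, 5.43% were higher and 6.12% lower at that p. Groups did not overlap for CEACAM5 (0.98) and KRT20 (-0.49). The intestinal factor CDX2 lay at 3.45 to 3.95 on M5 arrays and 3.43 to 13.4 on SW480 arrays, and the intestinal genes CDX1 and CDH17 were likewise too low to test.

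Of the 10 tested metallothionein probe sets, 3 were called higher in M5, annotated MT1H, MT1F and MT1X. In 6 every M5 array lay above every SW480 array, beside 7.23% of all tested probe sets, and in the other 4 the groups overlapped. All 9 metallothionein probe sets whose names end in _x_at, which may bind several of these transcripts, had positive log2 fold changes, between 0.70 and 1.92, which corresponds to 1.62-fold to 3.78-fold higher signal on the normalised scale. Over all 32768 tested probe sets, 16114 were positive and the median was -0.01. In the linear model (limma, Benjamini-Hochberg adjustment over all tested probe sets, threshold 0.05), 3 of the 16 tested probe sets of the 10 genes were called higher in M5 and 0 lower, beside 0.0397% called higher and 0.0336% called lower among all tested probe sets. As these calls chose the genes, nothing is read from that contrast. At an unadjusted p under 0.05 in limma, 11 of the 16 were higher and 0 lower, beside 4.82% and 5.44% of all tested probe sets.

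**Figure D2:**
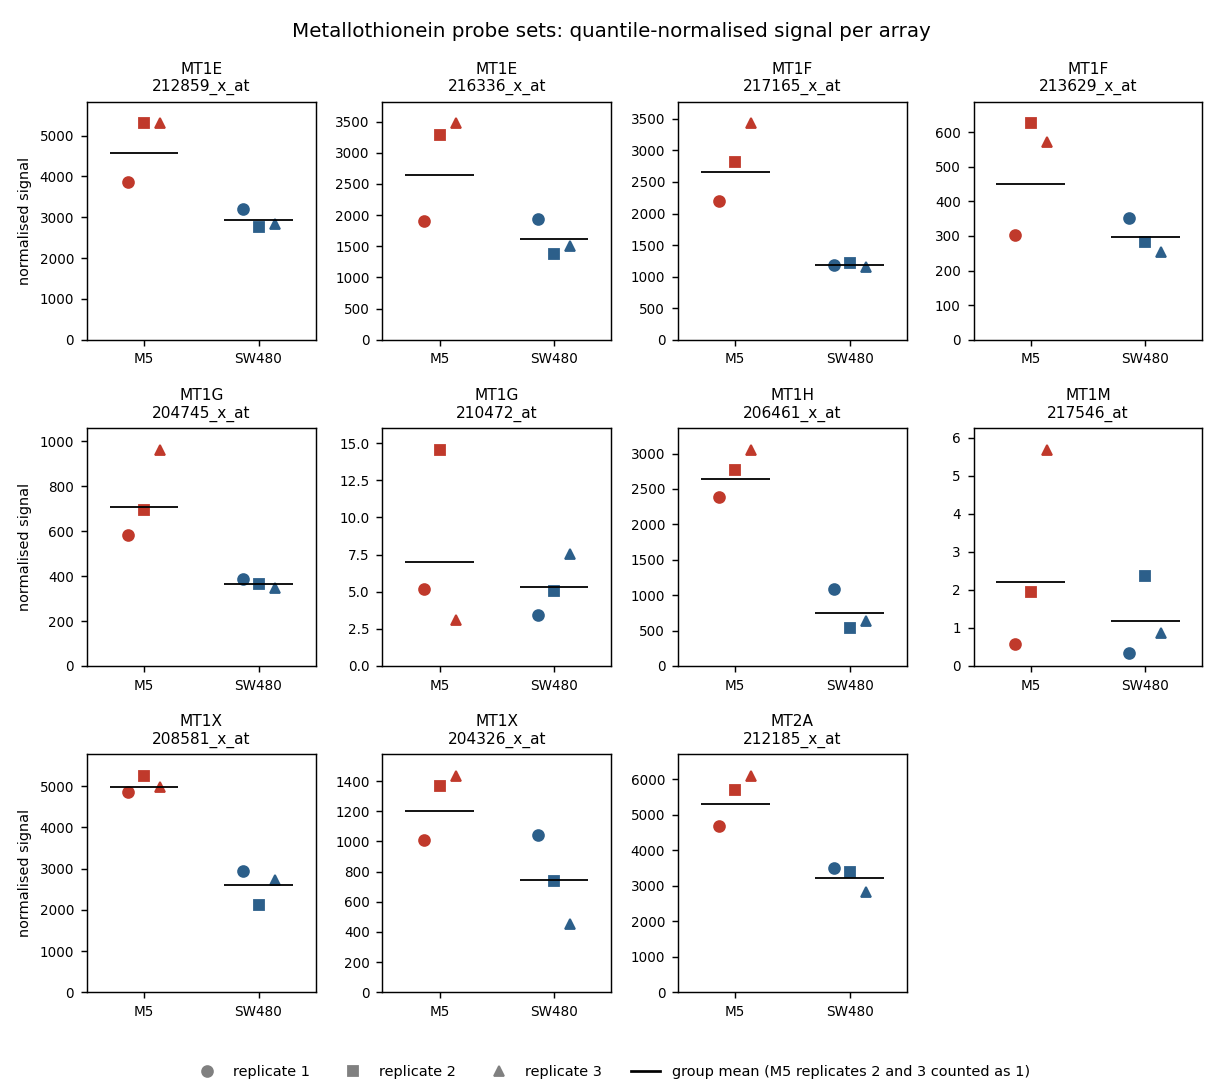
Normalised signal of the 11 metallothionein probe sets on each array, with M5 on the left and SW480 on the right of each panel; symbols mark the replicates and bars the group means, with M5 replicates 2 and 3 counted as 1. All M5 arrays lie above all SW480 arrays in 6 panels, MT1H among them, while the probe sets MT1G 210472_at and MT1M 217546_at stay below 15 on every array.

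MT1H, on chromosome 16 like the other 6 metallothionein genes of the group, gave normalised signals of 2379, 2772 and 3053 for M5 replicates 1, 2 and 3, against 1086, 540.15 and 632 on SW480 replicates 1, 2 and 3. Every M5 array stood above every SW480 array, and the highest SW480 array was the dimmest one. The means were 2646 ± 377 (SD, n = 2) in M5 and 753 ± 292 (SD, n = 3) in SW480. The log2 fold change was 1.92 with a standard error (SE) of 0.24 and a 95% interval of 1.40 to 2.44. Log2 fold changes, SEs and intervals here come from the fit of all 3 M5 and 3 SW480 arrays, in which M5 replicates 2 and 3 enter separately, unlike in the means. With these 2 arrays averaged to 1 sample, the log2 fold change of MT1H was 1.87 (SE 0.28). In deposited signals, before any normalisation, MT1H read 1203, 3804 and 4365 on M5 arrays and 390.1, 514 and 1021 on SW480 arrays, which did not overlap either.

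MT1F was measured by 2 probe sets that differed in how far they separated the groups. Probe set 217165_x_at had signals of 2198, 2815 and 3428 on M5 arrays, against 1184, 1218 and 1154 on SW480 arrays. The SW480 arrays lay within a narrow band and all M5 arrays above it, with means of 2659 ± 653 (SD, n = 2) in M5 and 1185 ± 32.3 (SD, n = 3) in SW480 and a log2 fold change of 1.22 (SE 0.17). Probe set 213629_x_at had 303, 625 and 572 on M5 arrays, against 351, 283 and 254 on SW480 arrays. M5 replicate 1 fell inside the SW480 range there, and the log2 fold change was 0.70 (SE 0.27).

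MT1X showed the same division. Probe set 208581_x_at had signals of 4848, 5245 and 4989.9 on M5 arrays, against 2934, 2126 and 2733 on SW480 arrays, with no overlap and a log2 fold change of 0.96 (SE 0.14). Probe set 204326_x_at had 1009, 1366 and 1433 on M5 arrays, against 1042, 738 and 456 on SW480 arrays. The groups overlapped through M5 replicate 1 and SW480 replicate 1, and the log2 fold change was 0.83 (SE 0.27). The array annotation names this probe set MT1X, but the transcript accession it gives for it belongs to MT1L, a related metallothionein locus, in the RefSeq table.

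MT2A, which encodes a widely expressed metallothionein, had signals of 4692, 5707 and 6095 on M5 arrays, against 3489.98, 3388 and 2815 on SW480 arrays. The groups did not overlap, with means of 5296 ± 855 (SD, n = 2) in M5 and 3231 ± 364 (SD, n = 3) in SW480 and a log2 fold change of 0.76 (SE 0.14).

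MT1E had signals of 3873, 5299.8 and 5299.8 on M5 arrays and 3199, 2751 and 2834 on SW480 arrays for probe set 212859_x_at. The groups stood apart with a log2 fold change of 0.71 (SE 0.15). For its second probe set, 216336_x_at, signals were 1909, 3286 and 3471 on M5 arrays and 1935, 1381 and 1509 on SW480 arrays. SW480 replicate 1 was slightly above M5 replicate 1 there, and the log2 fold change was 0.81 (SE 0.23).

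MT1G was also read by 2 probe sets. The cross-hybridising one, 204745_x_at, had signals of 582, 696 and 962 on M5 arrays, against 387, 365 and 346 on SW480 arrays, with no overlap and a log2 fold change of 0.996 (SE 0.21). The one with a plain ending, 210472_at, had 5.17, 14.55 and 3.07 on M5 arrays, against 3.43, 5.05 and 7.53 on SW480 arrays. These signals lay near the bottom of the scale and overlapped fully, and the log2 fold change of 0.24 had a 95% interval of -1.29 to 1.78. MT1M had a single probe set, 217546_at, with signals of 0.583, 1.93 and 5.68 on M5 arrays and 0.333, 2.37 and 0.867 on SW480 arrays, too low to enter the test.

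The endings of the probe set names bear on which gene is meant. All 9 bright metallothionein probe sets end in _x_at, by which the array maker marks probes that may also bind similar transcripts, and metallothionein transcripts are very alike. The 2 metallothionein probe sets with a plain _at ending were the dim ones of MT1G and MT1M. The signals above therefore describe metallothionein transcripts as a group, and which of the genes differed between M5 and SW480 cannot be told apart with these probe sets. Among all 3032 tested probe sets with that ending, 3 were called higher in M5, or 0.0989%, and these were the ones of MT1H, MT1F and MT1X.

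**Figure D3:**
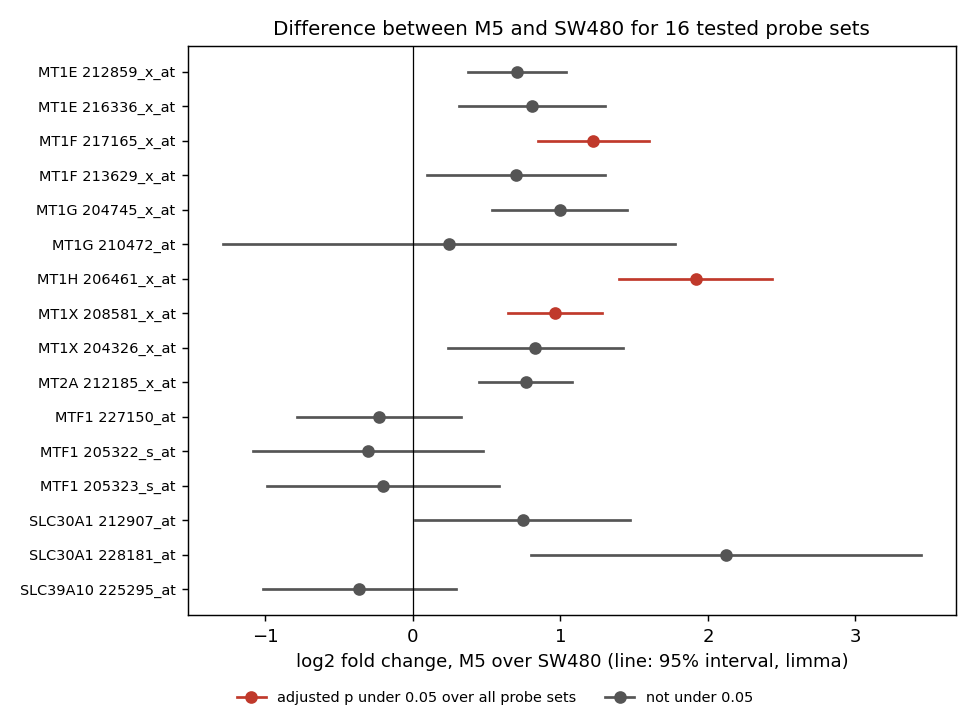
Log2 fold change of M5 over SW480 with its 95% interval for the 16 tested probe sets, from limma over all tested probe sets; red marks an adjusted p under 0.05. The 9 metallothionein probe sets ending in _x_at lie between 0.70 and 1.92, the 3 of MTF1 between -0.31 and -0.20, and the SLC30A1 probe set 228181_at at 2.12 has a wide interval of 0.80 to 3.44.

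The limma adjusted p-values over all tested probe sets were 0.0144 for MT1H, 0.0321 for MT1F and 0.0471 for MT1X by the probe sets that were called. The other 6 metallothionein probe sets ending in _x_at had adjusted p between 0.135 for MT2A and 0.438 for MT1F by 213629_x_at. With M5 replicates 2 and 3 averaged to 1 sample, 0 of the 16 probe sets were called and the adjusted p of MT1H, MT1F and MT1X were 0.0846, 0.252 and 0.323 in limma. The log2 fold changes in that fit were 1.14 (SE 0.20) for MT1F and 0.95 (SE 0.18) for MT1X. Leaving out any of M5 replicate 2, M5 replicate 3, SW480 replicate 2 or SW480 replicate 3 also gave 0 calls, with limma adjusted p of 0.0898 to 0.111 for MT1H. Without M5 replicate 1 there were 8 calls higher, and without SW480 replicate 1 there were 3, again MT1H, MT1F and MT1X. In these fits 0.513% and 0.372% of all tested probe sets were called higher, beside 0.0397% in the fit of all arrays.

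The size of the difference varied with array brightness. On the dimmest array of each group, M5 replicate 1 minus SW480 replicate 1, the log2 difference was 1.13 for MT1H, 0.89 for MT1F by 217165_x_at and 0.72 for MT1X by 208581_x_at. On the other arrays it was 2.31, 1.39 and 1.08 in the same order. The second probe sets of MT1E, MT1F and MT1X had -0.02, -0.21 and -0.05 on the dimmest arrays, against 1.23, 1.15 and 1.27 on the others. Of the 10 tested metallothionein probe sets, 7 were positive on the dimmest arrays, where 50.5% of all tested probe sets were. The part of brightness in these sizes was not tested. Between arrays of high 18S control signal, M5 was above SW480 by 1.63 for MT1H, 0.87 for MT1F and 0.96 for MT1X, and between arrays of low 18S signal by 2.20, 1.43 and 0.90, for the probe sets that were called. The only M5 array of high 18S signal was replicate 1, and the only SW480 array of low 18S signal was replicate 3. The splits by brightness and by 18S thus share M5 replicate 1 and are not separate checks.

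**Figure D4:**
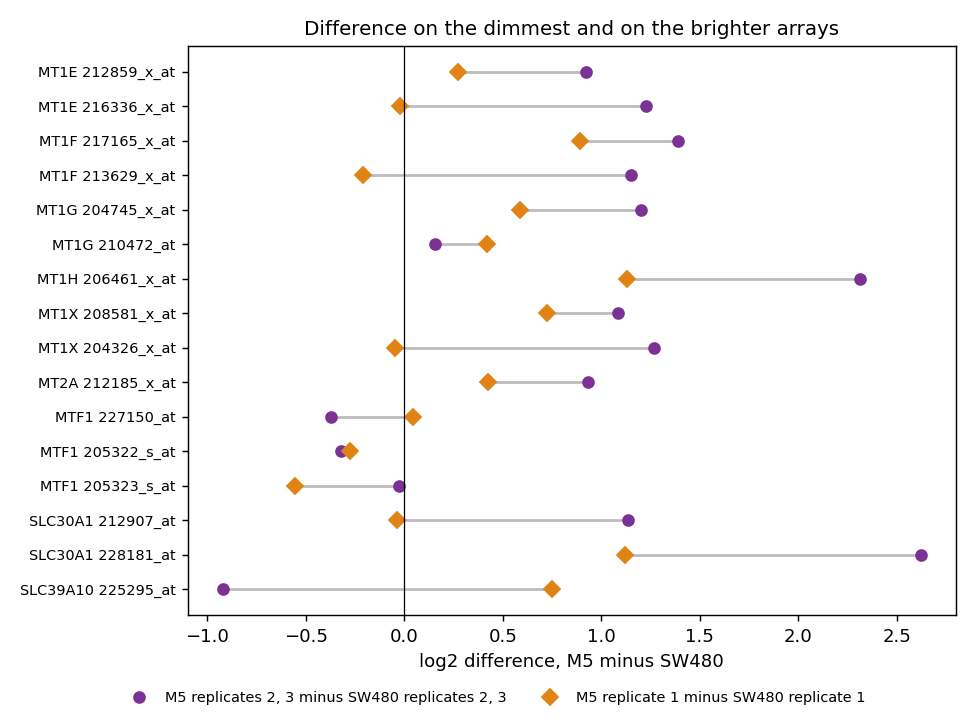
Log2 difference between M5 and SW480 for the 16 tested probe sets, on the dimmest array of each group (orange diamonds, 1 array each) and on the other arrays (purple circles, 2 arrays each). The 9 metallothionein probe sets ending in _x_at are at 0.92 or above on the brighter arrays and between -0.21 and 1.13 on the dimmest, and SLC39A10 lies at 0.75 on the dimmest arrays and -0.92 on the brighter ones.

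MTF1, the zinc-sensing activator of metallothionein genes, on chromosome 1, did not pass the test by any of its 3 probe sets. The brightest, 227150_at, had signals of 80.45, 77.9 and 69.7 on M5 arrays, against 77.95, 95.6 and 95.8 on SW480 arrays. The groups overlapped through SW480 replicate 1, and the log2 fold change was -0.23 with a 95% interval of -0.79 to 0.32. The probe sets 205322_s_at and 205323_s_at had log2 fold changes of -0.31 and -0.20, and limma adjusted p for the 3 probe sets lay between 0.800 and 0.885. The intervals thus reach down to -1.09 and up to 0.58, and a change of MTF1 transcript within them was not detectable with these arrays.

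SLC30A1, also on chromosome 1, encodes the plasma membrane exporter that lowers cytosolic zinc. Its probe set 228181_at had signals of 27.7, 144 and 163 on M5 arrays, against 11.8, 18.35 and 29.95 on SW480 arrays. M5 replicates 2 and 3 stood several-fold above all other arrays, whereas M5 replicate 1 lay inside the SW480 range. The means were 90.6 ± 88.9 (SD, n = 2) in M5 and 20.03 ± 9.20 (SD, n = 3) in SW480, the log2 fold change was 2.12 (SE 0.60), and the limma adjusted p was 0.316. With M5 replicates 2 and 3 averaged, the log2 fold change was 1.72 (SE 0.65).

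A second probe set of SLC30A1, 212907_at, had signals of 147, 269 and 294 on M5 arrays, against 151, 88.8 and 182 on SW480 arrays. It gave the same pattern at a smaller size, with M5 replicates 2 and 3 above all SW480 arrays, M5 replicate 1 within them, and a log2 fold change of 0.74 (SE 0.33). Its adjusted p in limma was 0.481. The remaining probe set, 242716_at, reached at most 3.60 on M5 arrays and 1.12 on SW480 arrays and was too low to test. On the dimmest arrays the log2 difference was 1.12 for 228181_at and -0.03 for 212907_at, against 2.62 and 1.13 on the other arrays. With the dimmest array of each group left out, limma called 228181_at and 212907_at higher in M5 (adjusted p = 0.00145 and 0.0498). That fit kept only the near-identical replicates 2 and 3 of M5 and called 7.99% of all tested probe sets. Of 19 alternative fits, 3 called 228181_at and 1 called 212907_at. None of the SLC30A1 probe sets is of the cross-hybridising type.

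SLC39A10, on chromosome 2, encodes a zinc importer of the plasma membrane and had a single probe set, 225295_at. Its signals were 892, 452 and 447 on M5 arrays, against 529.85, 1001 and 725 on SW480 arrays. M5 replicates 2 and 3 were below every SW480 array, while M5 replicate 1 was above SW480 replicates 1 and 3. Over all arrays the log2 fold change was -0.36 with a 95% interval of -1.01 to 0.29 (limma adjusted p = 0.720). The direction differed between sets of arrays: M5 minus SW480 was 0.75 on the dimmest arrays and -0.92 on the other arrays. It was 0.29 between arrays of high 18S control signal and -0.69 between arrays of low 18S signal. Both dimmest arrays had high 18S signal, and the parts of brightness and 18S were not tested. With the dimmest array of each group left out, limma called SLC39A10 lower in M5 (adjusted p = 0.0152), in a fit that called 7.99% of all tested probe sets. In that fit the M5 samples were the near-identical replicates 2 and 3, so most of the spread came from SW480 replicates 2 and 3.

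**Figure D5:**
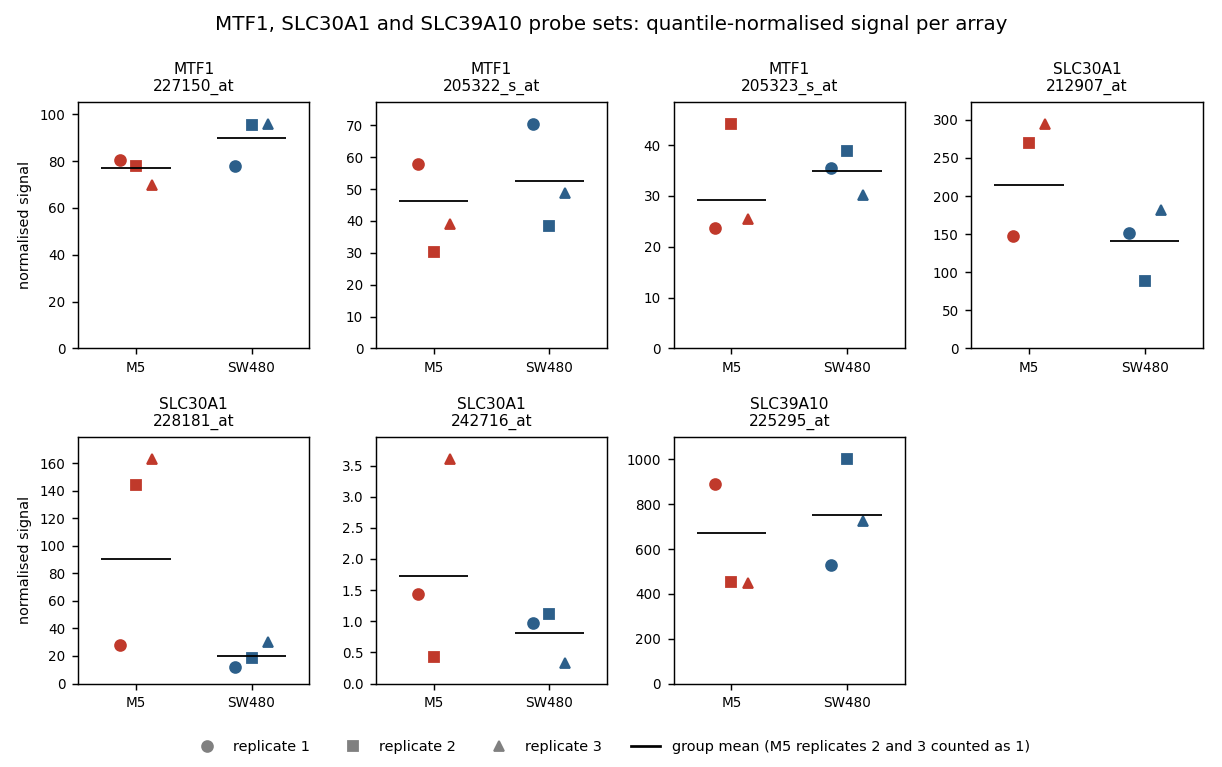
Normalised signal of the 7 probe sets of MTF1, SLC30A1 and SLC39A10 on each array, with M5 on the left and SW480 on the right of each panel; symbols mark the replicates and bars the group means, with M5 replicates 2 and 3 counted as 1. For SLC30A1 228181_at, M5 replicates 2 and 3 lie at 144 and 163 and the other arrays at 29.95 or below, and in no panel are the groups fully apart.

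Other metallothionein genes were looked for in a list of 12 further names, of which 3 had a probe set of their own and 2 were bright enough to test, with 0 called. MT1HL1, a gene closely similar to MT1H, was read by another cross-hybridising probe set with signals of 3195, 3471 and 4086 on M5 arrays, against 2261, 905 and 1776 on SW480 arrays. The groups did not overlap, and the log2 fold change was 1.21 (SE 0.27), at an adjusted p of 0.242 in limma. MT3, a metallothionein known mainly from brain, lay between 3.45 and 12.5 on M5 arrays and between 0.867 and 8.48 on SW480 arrays. MT4, known from squamous epithelium, was too low to test.

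Among the other zinc transporters, 0 genes were called in either direction. In the SLC30 exporter family 6 of 9 further genes were tested, each by its brightest probe set, with 3 positive and 3 negative and a median log2 fold change of -0.16. In the SLC39 importer family 12 of 13 further genes were tested, with 6 positive and 6 negative and a median of -0.08. The median over all 14243 tested genes was -0.01. The smallest limma adjusted p was 0.417 among the exporters and 0.391 among the importers, and at an unadjusted p under 0.05 there were 0 exporters higher and 2 lower, and 0 importers higher and 1 lower. Over all 14243 tested genes, 5.43% were higher and 6.12% lower at that unadjusted p.

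Groups without overlap were found for 1 exporter with M5 higher and 1 with M5 lower, and for 1 importer with M5 higher and 3 with M5 lower. Of these genes, 4 are described for their values, seen beforehand. SLC30A6, which moves zinc into the Golgi, had signals of 101, 70.9 and 92.3 on M5 arrays, against 139, 134 and 143 on SW480 arrays, with no overlap and a log2 fold change of -0.66 (SE 0.24), at an adjusted p of 0.417 in limma. SLC39A8, an importer of zinc, manganese and cadmium, had 130.4, 172 and 185 on M5 arrays, against 215, 259 and 307 on SW480 arrays, also with no overlap and a log2 fold change of -0.68 (SE 0.23), at an adjusted p of 0.391 in limma. In the other direction, SLC30A4, a transporter that moves zinc into vesicles, had 43.0, 47.0 and 41.9 on M5 arrays, against 36.6, 26.65 and 36.4 on SW480 arrays, a log2 fold change of 0.40 (SE 0.31), at an adjusted p of 0.704 in limma. The importer gene SLC39A3 had 127, 82.1 and 74.0 on M5 arrays, against 64.25, 51.8 and 59.2 on SW480 arrays, a log2 fold change of 0.64 (SE 0.29), at an adjusted p of 0.488 in limma. The other 2 importer genes whose groups stood apart, with M5 lower, were SLC39A7 and SLC39A14, at log2 fold changes of -0.79 (SE 0.36) and -0.40 (SE 0.20). Groups without overlap occurred in 7.23% of tested probe sets with M5 higher and in 7.89% with M5 lower, and in 6 of the 10 tested metallothionein probe sets, each with M5 higher.

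Genes that respond to the same stimuli as metallothioneins were also counted. Of 14 heat shock and oxidative stress genes that metals induce, 12 were tested and 0 called, with a median log2 fold change of 0.16 and a smallest limma adjusted p of 0.260. HMOX1, the haem oxygenase gene induced by cadmium, had 16.9, 44.3 and 46.05 on M5 arrays, against 57.2, 44.65 and 37.0 on SW480 arrays, and the groups overlapped. Both stress genes that were higher at an unadjusted p under 0.05 in limma are named for their values. HSPB1, a small heat shock protein gene, had 2965, 1887 and 2018 on M5 arrays, against 1525, 1235 and 993 on SW480 arrays, with no overlap and a log2 fold change of 0.86 (SE 0.21), at an adjusted p of 0.260 in limma. TXNRD1, the gene of a thioredoxin reductase, had 1204, 1055 and 1046 on M5 arrays, against 923, 634 and 659.8 on SW480 arrays, with no overlap and a log2 fold change of 0.59 (SE 0.18), at an adjusted p of 0.347 in limma. The 1 stress gene lower at that unadjusted p was HSPH1, a heat shock protein gene, whose groups overlapped, at a log2 fold change of -1.62. Of 10 glucocorticoid-induced genes 9 were tested and 0 called, with a median of 0.23 and a smallest adjusted p of 0.216. That smallest value was of TSC22D3, a gene of glucocorticoid feedback named for this value, with 151, 248 and 301 on M5 arrays and 115, 73.0 and 51.1 on SW480 arrays. DUSP1, the other glucocorticoid-induced gene higher at an unadjusted p under 0.05 in limma, had a log2 fold change of 0.93 (SE 0.28), without overlap. Of 16 copper-handling genes 15 were tested and 0 called, with a median of 0.09 and a smallest limma adjusted p of 0.288. That value was of CP, with 278, 53.9 and 26.7 on M5 arrays, against 18.8, 2.13 and 7.18 on SW480 arrays. CP had a log2 fold change of 3.10 (SE 0.80), SLC31A2 0.87 (SE 0.34) and STEAP2 -1.73 (SE 0.78). At an unadjusted p under 0.05 in limma, 2 genes were higher in each of these lists, and 1, 0 and 1 were lower in the stress, glucocorticoid and copper lists. These counts are out of 12, 9 and 15 genes and stand beside the 5.43% higher and 6.12% lower over all tested genes.

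The metallothionein genes lie side by side on chromosome 16, with 11 protein-coding members in a row in the RefSeq order from MT4 to MT1X and no other protein-coding gene between them. The 10 nearest tested protein-coding genes on either side, a set chosen after the values were seen, were compared in the same fit. Of these 20 genes 0 were called in limma, with a smallest unadjusted p of 0.0560 for NLRC5 (adjusted p = 0.501), 11 were positive and 9 negative, and the median log2 fold change was 0.03. BBS2, the last tested gene before the row, had -0.43, and NUP93, the first after it, had 0.15.

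The genes whose profile over the 6 arrays was most like the mean of the 10 tested metallothionein probe sets were found among 8964 genes of above-median brightness. They were NTAQ1, which encodes a glutamine amidase of protein degradation, YRDC, which encodes an enzyme of transfer RNA modification, the epithelial transcription factor gene ELF3, RND3 and the axon guidance receptor gene ROBO3. Pearson's r lay between 0.990 and 0.996, over 6 arrays that include the near-identical M5 replicates 2 and 3. ELF3 had signals of 269.8, 436 and 478 on M5 arrays, against 164, 121 and 132 on SW480 arrays, a log2 fold change of 1.46 (SE 0.26). Likeness by r does not measure size, and NTAQ1 and YRDC had log2 fold changes of 0.25 (SE 0.19) and 0.38 (SE 0.20). RND3 and ROBO3 had 1.37 (SE 0.23) and 0.66 (SE 0.28). None of the 5 passed the test over all probe sets.

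Liver is rich in metallothionein, so hepatocyte markers are given beside these results. Of 10 such genes 6 were tested and 0 called, and their summed signal ran from 109 to 615 on M5 arrays and from 100.2 to 353 on SW480 arrays. ALB, the albumin gene, lay at 2.55 to 11.4 on M5 arrays and at 0.667 to 7.38 on SW480 arrays, too low to test. At an unadjusted p under 0.05 in limma 2 of the 6 were higher in M5 and 0 lower. Over all tested genes, 5.43% were higher and 6.12% lower at that p. By sign, 4 of the 6 were positive and 2 negative. Log2 fold changes were -0.76 for CYP3A4, -0.47 for SERPINA1, 0.02 for APOA1 and 0.62 for APOA2. Both genes that were higher at that p are named for their values. TTR, the gene of the carrier protein transthyretin, had 195.7, 73.1 and 5.68 on M5 arrays, against 5.17, 1.67 and 1.43 on SW480 arrays, with no overlap and a log2 fold change of 3.52 (SE 0.97), at an adjusted p of 0.307 in limma. FGB, a fibrinogen chain gene, had 202, 23.8 and 9.33 on M5 arrays, against 11, 3.22 and 1.67 on SW480 arrays, a log2 fold change of 2.70 (SE 0.93), at an adjusted p of 0.390 in limma. FGB overlapped through M5 replicate 3 and SW480 replicate 1, and both genes were highest on M5 replicate 1. The sums of fibroblast, leukocyte and endothelial markers ran from 182 to 239, from 107 to 220.2 and from 31.7 to 66.0 on M5 arrays, against 237 to 386, 45.7 to 125 and 22.5 to 58.4 on SW480 arrays, with 0 called among 7, 4 and 3 tested genes. Only LYZ among the leukocyte markers and COL3A1 among the fibroblast markers had an unadjusted limma p below 0.05. Both are named for their values and count in the sums. LYZ had 63.9, 147 and 161 on M5 arrays, against 73.5, 1.22 and 23.5 on SW480 arrays. The groups overlapped, at a log2 fold change of 2.72 (SE 0.91). COL3A1 had 81.2, 66.5 and 45.0 on M5 arrays, against 223, 104 and 168 on SW480 arrays. They did not overlap, at -1.31 (SE 0.33). The part of all these markers in the metallothionein signals was not tested.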

How the data were processed

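The deposited table gives 1 intensity per probe set on a linear scale for each array. Per the submitters' processing notes the tool was GCOS 1.4. Neither its settings nor a build is given in the sources used, and no detection calls entered the analysis. Of 54675 probe sets, 62 controls were left out. Of the rest, 41091 have 1 symbol in the array annotation of 2016, 1801 several and 11721 none, and only those with 1 symbol were named. By gene ID, 41037 matched the RefSeq table of GRCh38.p14, with 0 symbols changed.

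Signals were quantile normalised and taken as log2(signal + 1.7), where 1.7 is the 20th percentile of the deposited intensities. This scale understates low-signal differences. Probe sets in the lowest 40% by mean were dropped, leaving 32768, which include 16 of the 18 described here. M5 was compared with SW480 in limma 3.58.1 under R 4.3.3 (lmFit, then eBayes with trend). P-values were two-sided and adjusted by Benjamini-Hochberg over all tested probe sets at a threshold of 0.05. On simulated data of 6 arrays, the fit called 44% of 8-fold and 5% of 2-fold changes. A count of 0 called therefore does not show that genes were unchanged. Figures were drawn with matplotlib 3.10.9.

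The members, gene lists and alternatives were chosen with earlier results of these data known. By rule, every probe set of the 10 genes was named, genes of other lists only when called, and the 5 genes most alike in profile. MT1HL1, MT3, MT4, SLC30A4, SLC30A6, SLC39A3, SLC39A7, SLC39A8, SLC39A14, HMOX1, HSPB1, HSPH1, TXNRD1, TSC22D3, and the marker and neighbouring genes with values were named outside that rule, with their values seen. DUSP1, CP, SLC31A2 and STEAP2 were named in the same way. Alternatives changed the scaling, pseudocount, filter, variance model, blocks, array weights and the arrays used. The number of arrays limits the precision.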

Additional observations from a re-analysis of the deposited data

How the results depend on the processing

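Of the 16 tested probe sets, 3 were called higher in M5 and 0 lower, among 24 called in the whole table. The counts higher fell to 0 with no scaling between arrays, with median centring, without the intensity trend in limma, and with M5 replicates 2 and 3 averaged. They were 11 higher and 1 lower with the dimmest array of each group left out, and 10 higher with array weights. Counting only the 5 tested probe sets with a plain _at ending necessarily gave 0, as all 3 calls were of probe sets ending in _x_at. Leaving out 1 array in turn gave 0 to 8 higher. The whole table then had 6 to 389 calls, and it had 38 with no filter, 1 without the trend, 9 with the 2 M5 arrays averaged, 2617 without the dimmest arrays, 1914 with array weights and 80 with a block by brightness. The causes were not tested. The replicate block gave 2 higher and 34 in the whole table. Deviations of equally numbered arrays correlated at 0.11, 0.02 and 0.07, and those of unequally numbered arrays at -0.11 to 0.08. Over the bright probe sets, M5 replicate 1 correlated more closely with SW480 replicate 1 (r = 0.952) than with M5 replicates 2 and 3 (0.935 and 0.933). Both replicate 1 arrays were the dimmest of their groups and had high 18S signal. Whether the numbers mark pairs is not known. MT1H and MT1F by 217165_x_at were each called in 11 of 19 alternatives and MT1X by 208581_x_at in 7. Signs of the tested probe sets stayed the same in all of these alternatives, except that MT1G by 210472_at was at -0.26 without M5 replicate 2 and up to 0.63 without another array. Much of this was fixed in advance. Changes of the filter or the trend, and blocks by replicate or brightness, left the log2 fold changes as they were. Where groups do not overlap, leaving out arrays could not turn the signs either. Low signals, as for MT1M, set no firm fold, since no detection calls were used.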
